A study of Mus musculus with 39 samples.

Results

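The brown fat thermogenic programme was followed through 9 genes across all arrays of the series, namely Ppargc1a, Ppargc1b, Prdm16, Ebf2, Zic1, Lhx8, Dio2, Cidea and Otop1. They were chosen by name, as every probe whose gene symbol in the series table is one of these 9 names. The rule found all 9 genes, of 29411 gene symbols on the array, with 13 probes of 40628, and each gene was read from its brightest probe. All 9 genes passed the filter on dim probes (well above background on at least 6 arrays). The samples were stromal vascular cells of brown fat from C57BL/6J mice, labelled as infiltrating macrophages of that depot, with 1 array for each diet and time label and 39 arrays in all. Mice weaned at 3 to 4 weeks of age were given a low fat diet (LFC, 10 arrays), a high fat, high sucrose diet (HFC, 11 arrays), or that same high fat diet with a botanical formulation, KAL-1, at 5, 20 or 75 µg (HF5, HF20 and HF75, 6 arrays each). LFC and HFC were sampled at Day 1, 6, 10 and 14 and from Week 0 to Week 18, with weeks counted from Day 14, and LFC had no Week 6 array. The 3 KAL diets were sampled every 3 weeks from Week 3 to Week 18. Every dosed mouse also received the high fat diet, so HFC is the control of the doses and LFC is not. The labels do not say how many mice an array holds, and arrays of 1 diet differ in time, so p-values here measure the spread between such arrays.

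Brown adipocytes burn fuel to make heat, through uncoupling protein 1 (Ucp1) in the mitochondrial membrane. The transcriptional coactivators Ppargc1a and Ppargc1b drive the making of mitochondria, and Ppargc1a is induced by cold through the adrenergic and cyclic AMP pathway. Prdm16 and Ebf2 set and keep brown fat identity, while Zic1 and Lhx8 are transcription factors long used as markers of the classical interscapular depot. Dio2 is the deiodinase that turns thyroxine into the active hormone T3 inside the cell, and it too is induced by cyclic AMP. Cidea is a lipid droplet protein abundant in brown fat, and Otop1 encodes an otopetrin proton channel that is expressed in brown fat.

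The promoter table held 6 of the 9 genes (Ppargc1a, Prdm16, Zic1, Lhx8, Dio2 and Otop1). The 250 bases before the start of Dio2, Ppargc1a and Otop1 are shown because these 3 genes moved together across arrays, as described further on, and because Dio2 and Ppargc1a are textbook cyclic AMP targets. Sequences are from RefSeq, build GRCm38.p6, written 5′ to 3′ along the gene. Capitals mark the motifs searched on both strands, which were the cyclic AMP response element TGACGTCA, its shorter core TGACG, the TATA box TATAAA and the nuclear receptor core AGGTCA.
Dio2, chr12:90739039-90739288, minus strand: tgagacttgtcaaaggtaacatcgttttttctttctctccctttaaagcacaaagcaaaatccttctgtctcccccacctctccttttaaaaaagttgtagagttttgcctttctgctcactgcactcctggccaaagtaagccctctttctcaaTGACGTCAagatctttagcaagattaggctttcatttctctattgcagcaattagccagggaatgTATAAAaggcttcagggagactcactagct
Ppargc1a, chr5:51567726-51567975, minus strand: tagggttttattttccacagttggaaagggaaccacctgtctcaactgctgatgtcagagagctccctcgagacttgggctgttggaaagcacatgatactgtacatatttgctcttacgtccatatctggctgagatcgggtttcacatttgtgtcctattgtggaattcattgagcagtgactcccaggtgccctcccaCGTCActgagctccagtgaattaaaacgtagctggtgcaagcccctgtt
Otop1, chr5:38277154-38277403, plus strand: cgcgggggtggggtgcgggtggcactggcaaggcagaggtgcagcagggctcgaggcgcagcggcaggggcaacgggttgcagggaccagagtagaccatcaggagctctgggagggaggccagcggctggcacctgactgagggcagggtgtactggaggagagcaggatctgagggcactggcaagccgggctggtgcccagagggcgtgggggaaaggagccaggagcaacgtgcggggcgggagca
Dio2 held the whole element TGACGTCA, beginning 95 bases before its start, which contains the core TGACG on both strands, and a TATAAA 30 bases before it. Of all 32851 promoter windows of the same length, 1.55% held TGACGTCA and 12.4% held TATAAA. Ppargc1a held the core TGACG alone, on the opposite strand 49 bases before its start, as did 17.8% of all windows counted with either strand. None of the 4 motifs was in the window of Otop1, Prdm16, Zic1 or Lhx8, and AGGTCA, found in 14% of windows, was in none of the 6. These matches describe letters and not sites in use.

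Levels are given as log2 of the background-subtracted signal minus the 75th percentile of the same array, so 0 is the 75th percentile of that array, and levels of different genes are not compared because each probe has its own brightness. Scanner brightness differed widely, with a 75th percentile of 18.1 to 3974 intensity units, and 31.2 to 98.0% of probes were well above background. The HF20 Week 15 array was the brightest, 71.4% of its spots were left out as outliers, and it gave no value for Ppargc1b, Zic1, Dio2 or Otop1. Of 8 macrophage markers, 6 were well above background on every array, but so were 5 of 7 brown adipocyte markers and 8 of 9 adipocyte markers, so markers of both cell types were measured throughout. In such bulk RNA, fewer cells of a type and less RNA per cell cannot be told apart. The titles of 9 arrays carry the token BA or BAT, which the labels do not explain. BAT stands in titles of Day 1, Day 6 and Week 9, and BA in titles of Week 12 to Week 18, and these forms were pooled. The other titles, called ordinary here, carry B-A or B_A from Week 0 on, so the token BA itself differs from theirs by a separator only. The titles differ in other tokens too. Those of the titled arrays of Week 9, Week 15 and Week 18 carry an R with a number, which ordinary titles of those weeks lack. Some ordinary titles of Week 0 to Week 6 also carry an R, HFC Week 6 among them. The BA titles of Week 12 give no week. The LFC Day 6 title is the only one that begins with P5 in place of P4. At Day 14 the HFC minus LFC difference in the deposited table runs opposite to that in the scanner files (r = -0.995 over probes), so the diet of those 2 arrays is not settled.

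Of the coactivators, Ppargc1b fell into separate ranges on different arrays. Ppargc1b lay between 3.80 and 4.59 on 8 arrays and at or below 1.81 on the other 30 measured, with no array between. These 8 were LFC Week 12 and Week 18, HFC Week 6 and Week 9, HF5 Week 9 and Week 15, HF20 Week 12 and HF75 Week 15, so every diet had at least 1 by its group label. The HF20 Week 12 array is HF20 by title and source name, but another of its labels gives the high fat diet alone, and it is the single such array of HF20 and the highest HF20 value of Dio2 (2.34). Of these, 7 are the titled arrays of Week 9 to Week 18, and the eighth, HFC Week 6, has an ordinary title. Ppargc1a ranged from -2.28 (LFC Day 6) to 3.09 (HF75 Week 15), with 1.21 on HFC Week 6, and its second probe followed the first with r = 0.85 over 39 arrays. The second probe of Ppargc1b did so with r = 0.97 over 38 arrays.

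Prdm16 varied least of the 9, from -0.64 (HF20 Week 18) to 2.93 (LFC Week 15), and was well above background on all 39 arrays. Its medians were 1.86 in LFC, 1.54 in HFC, 1.18 in HF5, 1.29 in HF20 and 1.07 in HF75, and the ranges of all 5 diets overlapped. Ebf2 ranged from -2.73 on the HF20 Week 15 array to 2.49 on HFC Week 9, with medians between -0.11 and 0.58 in the 5 diets.

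Of the lineage markers, Zic1 was well above background on 35 of the 37 arrays that measured it and Lhx8 on 19 of 39. Zic1 had medians of -1.63 in LFC (lowest -7.69, highest -0.37, n = 10), -1.14 in HFC (-2.26 to 0.30, n = 10), -0.22 in HF5 (-1.54 to 0.45), -0.20 in HF20 (-0.74 to 0.35) and -0.36 in HF75 (-1.04 to 0.54). All 5 ranges overlapped. Lhx8 had medians between -3.82 (LFC) and -2.64 (HF75), and its 2 probes followed each other less closely than those of the other genes with a second probe (r = 0.54 over 38 arrays).

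Among the effectors, Dio2 had a median of -0.95 in LFC (-4.10 to 3.45, n = 10), -2.85 in HFC (-3.49 to 1.58, n = 11), -0.39 in HF20 (-1.27 to 2.34, n = 5) and -0.73 in HF75 (-1.97 to 4.01, n = 6). In HF5 it was 2.05, -1.25, 2.94, -1.20, 4.17 and 0.95 from Week 3 to Week 18. HFC had the lowest median and HF5 the highest, and all ranges overlapped. Dio2 was well above background on 35 of the 38 arrays that measured it. Otop1 spanned the widest range, from -8.68 (HFC Week 12) to 3.99 (HF75 Week 15), and was well above background on 31 of the 38 arrays that measured it. Cidea ranged from -0.29 (HFC Week 12) to 9.09 (HF75 Week 9) and lay well above background everywhere. Its spot was saturated on 8 arrays, the same 8 on which Ppargc1b was high, so its value on them is only a lower bound.

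**Figure D1:**
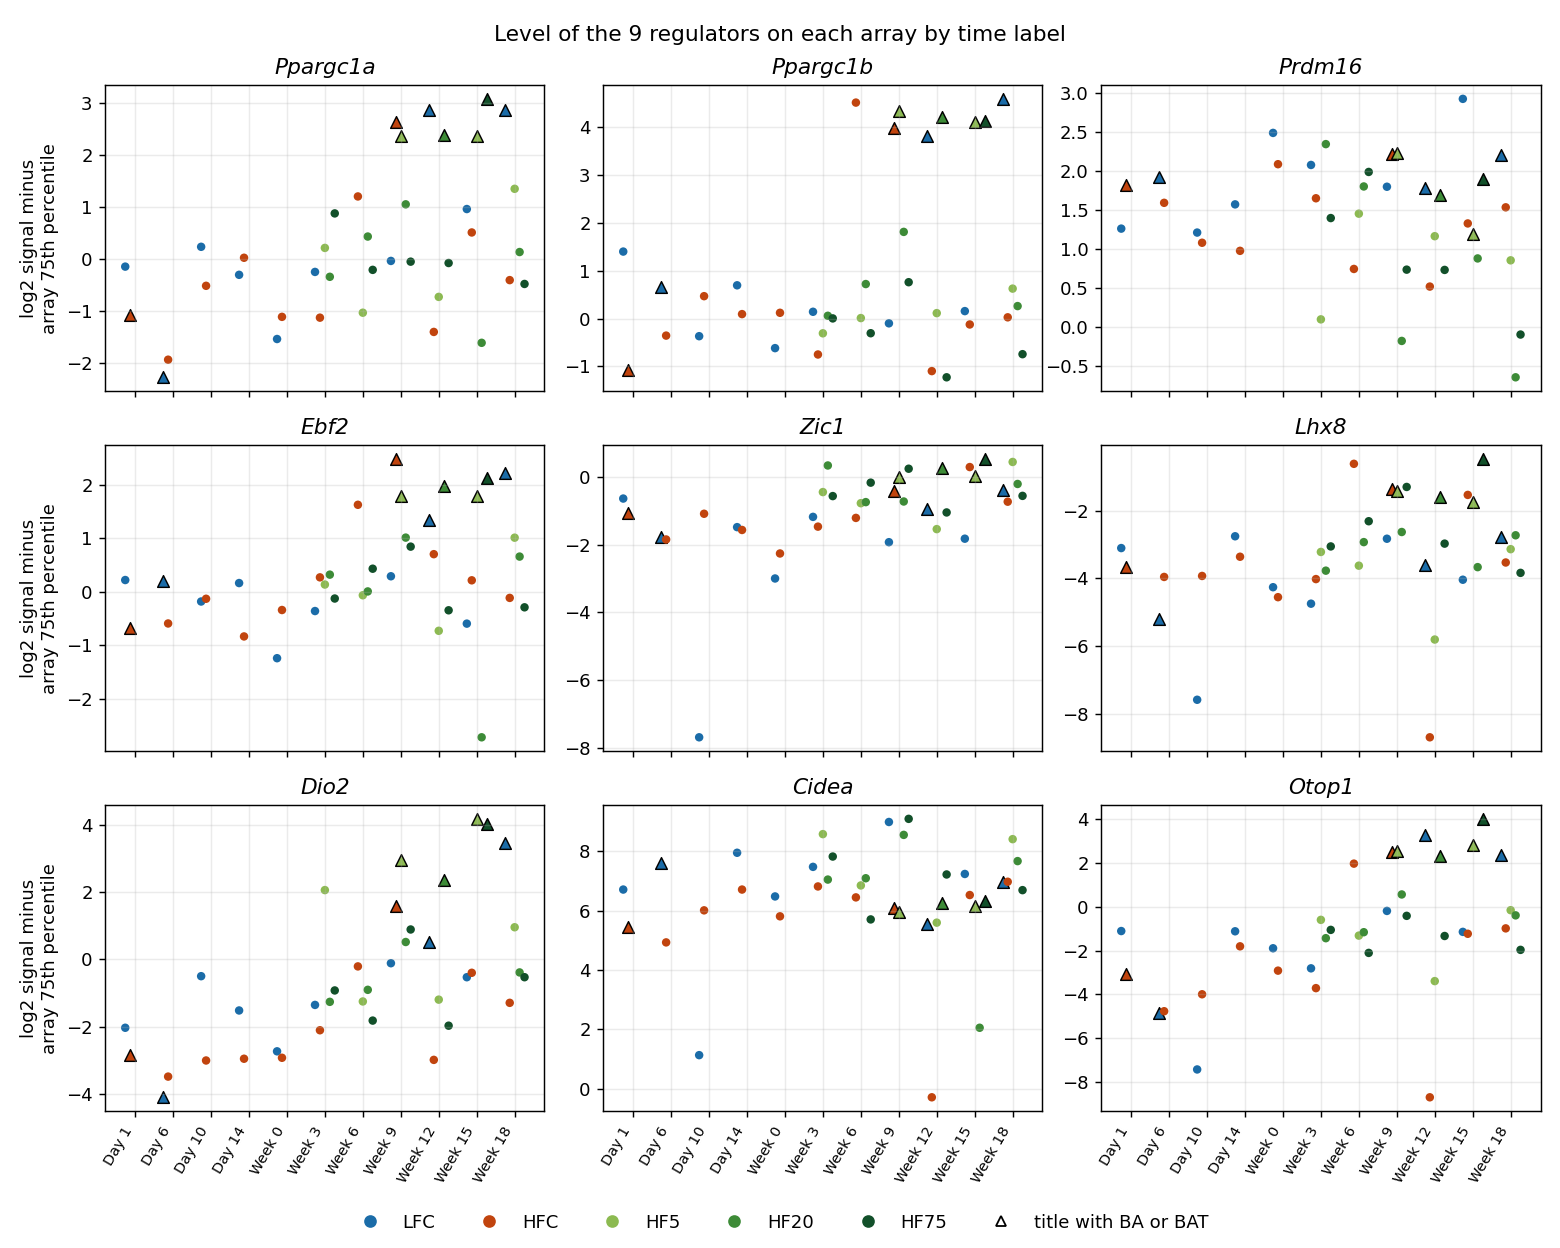
Level of each of the 9 genes (y axis, log2 signal minus the array's 75th percentile) on each array by time label (x axis), coloured by diet, with triangles for the 9 arrays titled BA or BAT. From Week 9 on, the triangles of Ppargc1b lie between 3.80 and 4.59 and all other points of those weeks at or below 1.81. The Cidea triangles from Week 9 on and its HFC Week 6 point are saturated.

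The 9 titled arrays were compared with the other 30, with diet and time label in the model, because most arrays high in Ppargc1b carry such a title. At Day 1, Day 6 and Week 9 the titled arrays were scanned on other dates than the ordinary ones, so title and scan date cannot be told apart there. This comparison was added after the data were seen, so the value of Ppargc1b restates what prompted it, and those of genes that vary with Ppargc1b are not independent of that choice. Of the 9 genes, 7 were higher on the titled arrays and none was lower, where 20.8% of all 33573 probes were called higher, 30.9% lower and 51.7% in all. The median of all probes was itself -0.27 on the log2 scale. Scaling moved that split, since quantile normalization gave a median of 0.24 for all probes, with 7642 of 11125 calls higher in place of 6983 of 17372, and Prdm16 at 0.45 and Lhx8 at 1.39 were then not called. The 7 were Otop1 (log2 difference 3.39 ± 0.82 SE, adjusted p = 0.00182), Ppargc1b (3.14 ± 0.57, adjusted p = 0.000242), Dio2 (2.39 ± 0.49, adjusted p = 0.000542), Ppargc1a (2.10 ± 0.43, adjusted p = 0.000485), Ebf2 (1.65 ± 0.37, adjusted p = 0.000942), Lhx8 (1.43 ± 0.55, adjusted p = 0.0323) and Prdm16 (0.77 ± 0.31, adjusted p = 0.0397). The first 5 were called in all 25 alternative settings tried, with Ppargc1b at 2.67 or above and Dio2 between 1.97 and 3.50. Lhx8 and Prdm16 were not, being called in 17 of 24 and 15 of 25, and Lhx8 turned to -0.56 under another background correction. Zic1 was 0.61 ± 0.46 (adjusted p = 0.272). No size is given for Cidea, whose spot was saturated on 7 of the 9.

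The difference was one of the later titles. On the 7 titled arrays of Week 9 to Week 18, Ppargc1a lay between 2.38 and 3.09, Ebf2 between 1.34 and 2.49 and Otop1 between 2.31 and 3.99. On the 29 ordinary arrays without HFC Week 6, Ppargc1a reached 1.35 and Ebf2 1.02, and Otop1 reached 0.55 on the 28 that measured it. These sets of arrays were formed after seeing Ppargc1b, and the share of all probes that part them in this way was not counted. Dio2 lay between 0.53 and 4.17 on the late titled arrays, and 3 ordinary arrays were as high as the lowest of them. The titled HFC Day 1 and LFC Day 6 arrays were at -1.08 and -2.28 for Ppargc1a, -3.06 and -4.84 for Otop1 and -2.85 and -4.10 for Dio2, each below the ordinary array of the same day, though both Otop1 values at Day 6 (-4.84 and -4.76) were not well above background. The LFC Day 6 value of Dio2 was not well above background either. Ppargc1b and Ebf2 were below the ordinary array at Day 1, by -2.47 and -0.91, and above it at Day 6, by 1.01 and 0.79. HFC Week 6, an ordinary title, was at 1.95 for Otop1, 4.51 for Ppargc1b and 1.63 for Ebf2, high like the late titled arrays. It was at 1.21 for Ppargc1a, within the range of the other ordinary arrays, and at -0.21 for Dio2 and -1.20 for Zic1.

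Markers of other cells moved with the same arrays. The mean level of 6 neutrophil markers was between -4.66 and -2.27 on the 7 late titled arrays and -4.69 on HFC Week 6, and between -1.26 and 4.59 on the other 31. Beside 30.9% of all probes called lower and 20.8% called higher, 6 of 6 neutrophil, 5 of 8 macrophage, 4 of 6 stromal, 2 of 3 mesothelial and 1 of 4 endothelial markers were called lower and none of these higher. Of 7 brown adipocyte markers 3 were called higher and none lower, and none of 8 muscle markers was called. Of 9 adipocyte markers, 7 were called higher and 1 lower, and their mean was between 4.30 and 5.36 on the late titled arrays against 0.63 to 4.46 on the other 31. The 75th percentile of signal was 310.3 to 1289 on the late titled arrays and 747.6 on HFC Week 6. On the other 31 it ran from 18.1 to 3974, but only HFC Day 1 (467.6), HFC Week 12 (949.6) and HF20 Week 15 (3974) were above 310.3. At Week 9 it was 917.7 and 1076 on the titled arrays and 18.1 to 24.1 on the others. Brightness thus largely went with the arrays high in Ppargc1b. The part of cell makeup and of brightness in the differences of the 9 genes was not tested.

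**Figure D2:**
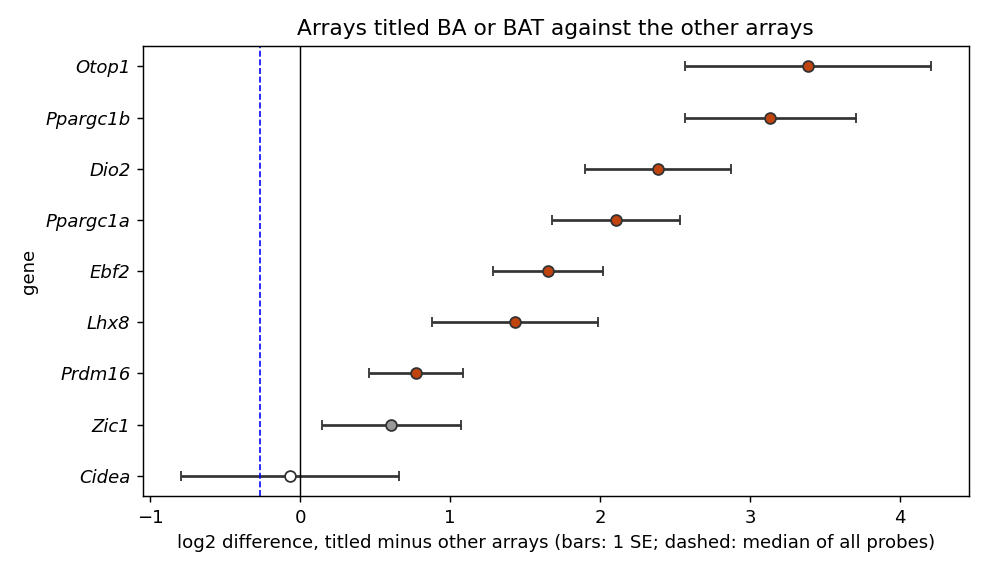
Fitted log2 difference of each gene between arrays titled BA or BAT and the other arrays (x axis, points, with bars of 1 SE) for the 9 genes (y axis). Filled red points passed the test at adjusted p under 0.05, the grey point (Zic1) did not, the open point (Cidea) was saturated on most titled arrays, and the dashed line is the median of all probes, -0.27.

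On 2 arrays some members were very low and the others were not. LFC Day 10 and HFC Week 12 were the 2 arrays with the lowest Ucp1 (-3.16 and -3.18, against 1.48 to 8.82 on the other 37). Cidea was 1.13 and -0.29 there, against 2.05 to 9.09 elsewhere. Lhx8 was -7.57 and -8.68 and Otop1 -7.41 and -8.68, neither well above background, and both HFC Week 12 values were the lowest that array gave, so they are bounds. Zic1 was -7.69 on LFC Day 10, not well above background, against -3.00 to 0.54 on the 36 others measured, and its spot on HFC Week 12 was left out. The coactivators, Prdm16, Ebf2 and Dio2 stayed within the range of the other arrays. On LFC Day 10, Dio2 was -0.50, above 21 of the 36 others, and on HFC Week 12 Ebf2 was 0.71, above 26 of 37. The mean of 3 mesothelial markers was 2.16 and 1.61 on these arrays, against a median of -3.67 over all arrays. Whether that bears on the 9 genes was not tested.

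Dio2 was set against the other members over time. The rise of Dio2 on LFC and HFC arrays was known when the members were chosen, so its p-values there are no independent test. On the 21 LFC and HFC arrays, from Day 1 to Week 18, its slope was 0.53 ± 0.14 (SE) log2 units per doubling of days, with an unadjusted p of 0.00111 and an adjusted p of 0.179, so it did not pass. In HFC it was -2.85, -3.49, -3.01 and -2.96 from Day 1 to Day 14, -2.93 at Week 0, -2.11 at Week 3, -0.21 at Week 6, 1.58 at Week 9, -2.99 at Week 12, -0.40 at Week 15 and -1.30 at Week 18. All 5 arrays up to Week 0 lay at or below -2.85, and 5 of the 6 later ones at or above -2.11. The HFC Day 14 and Week 3 values of Dio2 were not well above background. In LFC it was -2.04, -4.10, -0.50 and -1.52 up to Day 14, -2.74 at Week 0, -1.36 at Week 3, -0.12 at Week 9, 0.53 at Week 12, -0.53 at Week 15 and 3.45 at Week 18. Both LFC arrays above 0 carry a BA or BAT title, as does the LFC Day 6 array, the lowest of that diet. That Day 6 value was not well above background. Of the other 8 members, Otop1 had the same slope with a larger error (0.53 ± 0.28). It was well above background on only 7 of 10 LFC and 7 of 11 HFC arrays. Ppargc1a (0.37 ± 0.13), Ppargc1b (0.28 ± 0.17) and Ebf2 (0.21 ± 0.09) had smaller slopes. Zic1 (0.17 ± 0.16), Lhx8 (0.12 ± 0.18) and Prdm16 (0.04 ± 0.06) had smaller slopes still, and that of Cidea (0.05 ± 0.21) includes 4 saturated arrays. No probe of 33573 was called by limma in this fit (0%), while 12.1% had an unadjusted p under 0.05, and 3 of the 9 members did (Dio2, Ppargc1a and Ebf2). The median slope of all probes was -0.05.

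No scan date covered more than 1 time label, so the date of scanning and time cannot be told apart, and with scan date as a random block the slope of Dio2 was 0.52 (adjusted p = 0.237). The late titled arrays fall at the end of the course. Without the 9 titled arrays the slope of Dio2 was 0.36 ± 0.12 (adjusted p = 0.489), of Ppargc1a 0.17 ± 0.12, of Otop1 0.23 ± 0.35, of Ebf2 0.07 ± 0.09 and of Ppargc1b -0.07 ± 0.17. With HFC Week 6 also left out, an alternative chosen after seeing the data, Dio2 was 0.33 ± 0.10 (adjusted p = 0.264) and Ppargc1b -0.14 ± 0.08. The unadjusted p of the limma fit was then 0.00642 for Dio2 and 0.0909 or above for the other 8 members. These values do not set Dio2 apart, since its rise was known beforehand. No difference of slopes between Dio2 and another member was tested on LFC and HFC arrays. The test of the difference in slope between the diets gave -0.18 ± 0.28 for HFC minus LFC (adjusted p = 1.00), and limma called no probe there (0%), with 483 at an unadjusted p under 0.05.

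On the 18 KAL arrays the slope of Dio2 from Week 3 to Week 18 was 0.84 ± 0.65 log2 units per doubling of days, from 17 arrays because HF20 Week 15 gave no value. An exact permutation test over all 720 orders of the 6 week labels gave p = 0.435 (two-sided, smallest possible p 0.00139). Otop1 (0.89 ± 0.67) and Ppargc1b (0.83 ± 0.62) had slopes of the same size, while that of Prdm16 was -0.45 ± 0.32. Cidea was saturated on 4 of the KAL arrays from Week 9 to Week 15, so its slope, and its difference from that of Dio2, rest on capped values. The difference of slopes between Dio2 and each of the other 8 lay between -0.05 (Otop1) and 1.30 (Prdm16). Over these 8 comparisons the smallest Benjamini-Hochberg adjusted p of the exact permutation test was 0.737, so Dio2 was not shown to move apart from any of them. Without the titled arrays the slope of Dio2 was 0.04 (exact permutation p = 0.974), that of Otop1 0.04 and that of Ppargc1b 0.04. In the limma fit across all probes none was called (0%), with 3223 at an unadjusted p under 0.05 and no member among them. In simulated data with independent noise this fit recovered 0 of 200 probes given a slope of 1, so it had little power to call one.

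**Figure D3:**
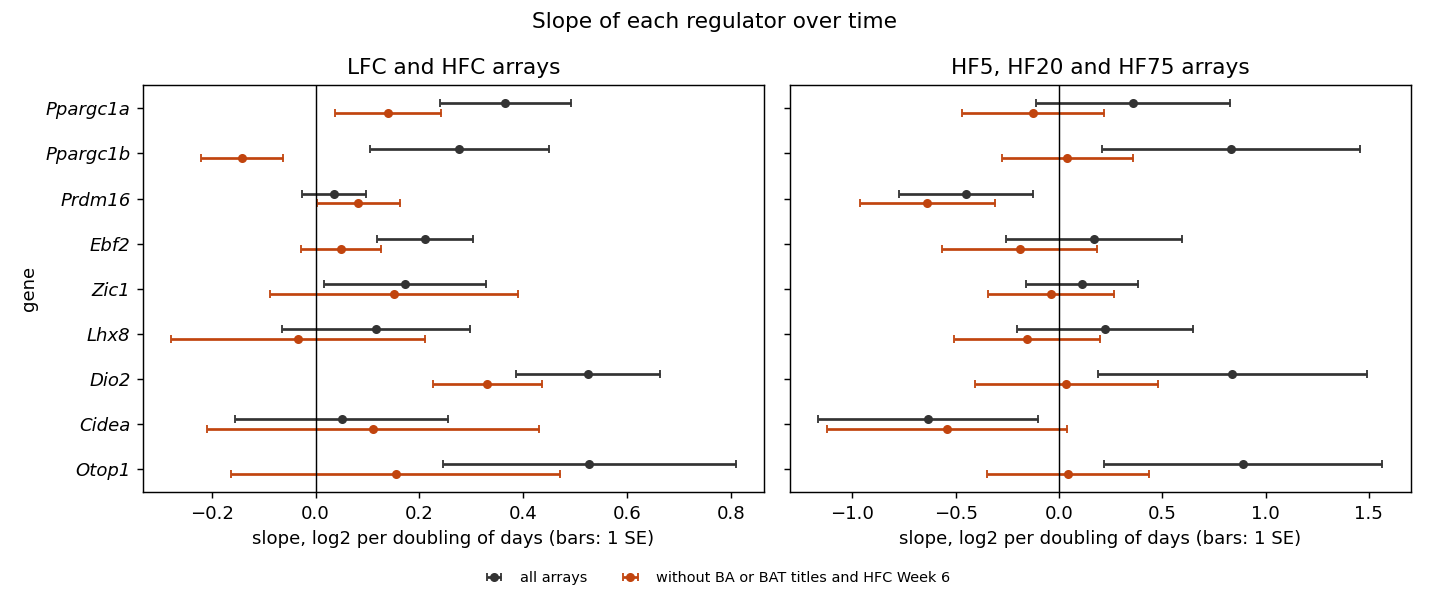
Slope of each gene (y axis) over time (x axis, log2 units per doubling of days, bars of 1 SE), on LFC and HFC arrays (left) and KAL arrays (right), with all arrays (black) and without the 9 titled arrays and HFC Week 6 (red). On LFC and HFC arrays Dio2 goes from 0.53 to 0.33, and on KAL arrays from 0.84 to 0.04. The black points of Cidea include saturated arrays.

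HFC was compared with LFC to ask what the high fat diet does to these genes. None of the 9 members and no other probe was called by limma (0%), while 961 of 33573 probes and none of the members had an unadjusted p under 0.05. Of the 9 estimates, 7 were negative, among them Dio2 (-0.96 ± 0.66 SE, adjusted p = 0.999). Otop1 was -1.02 ± 1.03, a value that uses HFC Week 12 at the lowest signal of its array, and it turned to 0.12 without Week 12 and to 0.17 without the titled arrays. The sign of Cidea is among the 7, but no size is given, as 2 arrays of each diet were saturated. Their median was -0.56, beside 0.04 over all probes. At single time labels Dio2 was lower in HFC at 7 of 10 and Prdm16 at 8 of 10. Among the 6 labels whose arrays share a scan date, Prdm16 was lower in HFC at all 6 (mean -0.78) and Dio2 at 5 (mean -2.04). At Week 12 and Week 18 of these the LFC array is a titled one and the HFC array is not, and there Dio2 differed by -3.51 and -4.74. At the other 4 labels it differed by -2.50, -1.43, -0.19 and 0.13. Without the titled arrays the fitted estimate for Dio2 was -0.56 ± 0.50 and that for Prdm16 -0.79 ± 0.43. With scan date as the block and the titled arrays kept, Dio2 was -1.79 (unadjusted p = 0.0323) and Prdm16 -0.88 (unadjusted p = 0.0205), each with an adjusted p of 0.854. Zic1 was the largest positive estimate (0.97 ± 0.48, unadjusted p = 0.0533), and rested on LFC Day 10, without whose time label it was 0.32. With the 2 Day 14 diets exchanged, Dio2 was -0.68 and Prdm16 -0.43, and Prdm16 was then lower in HFC at 5 of the 6 labels of a shared scan date.

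Arrays of the same day gave a measure of repeatability, since Day 14 and Week 0 are the same day. Between them the LFC value of Dio2 differed by -1.21 and the HFC value by 0.03. Over the 9 genes the LFC differences ran from -1.52 (Zic1) to 0.92 (Prdm16) and the HFC differences from -1.19 (Lhx8) to 1.11 (Prdm16). These differences take the Day 14 diets as labelled, which is not settled, and the Day 14 and Week 0 arrays were scanned on different dates.

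The 3 doses of KAL were compared with HFC at matched time labels. No probe was called by limma at 5 µg (0%), 20 µg (0%) or 75 µg (0%), with 502, 901 and 1211 probes at an unadjusted p under 0.05, among which Dio2 at 5 µg was the single member. Dio2 was the largest member estimate at the lowest dose, with HF5 above HFC by 2.14 ± 0.82 (unadjusted p = 0.0144, adjusted p = 1.00). It was 1.26 ± 0.88 at 20 µg and 0.81 ± 0.82 at 75 µg. The HF5 estimate was 2.01 ± 0.59 without the titled arrays (adjusted p = 0.26) and, among single labels left out, 1.57 without Week 15 and 1.72 without Week 3. Otop1 was above HFC by 1.26 ± 1.28, 1.58 ± 1.37 and 0.80 ± 1.28 in order of dose. Prdm16 was below HFC at each dose (-0.32, -0.50 and -0.38, SE 0.43 each). No size is given for Cidea, saturated on HFC Week 6 and Week 9 and on 4 KAL arrays. The 3 comparisons share the HFC arrays. In simulated data with independent noise the test of HF5 against HFC recovered 56 of 200 probes changed 4-fold and 0 of 200 changed 2-fold.

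The rest of the pathway was read from lists of transcription factors, coregulators, effectors, thyroid hormone genes and depot markers. In the diet, dose and time fits none of the 64 tested genes of 67 listed was called by limma, and at an unadjusted p under 0.05 there were 10 higher and 1 lower over time on LFC and HFC arrays. Against time on LFC and HFC arrays, 7 of 15 thermogenic effectors had an unadjusted p under 0.05 with a positive slope, beside 12.1% of all probes with such a p in either direction, and the list's median was 0.37, beside -0.05 over all probes. The late titled arrays, on which many of these effectors were higher, lie at the end of that course. On the titled arrays 31 of the 64 were called higher and 9 lower, with a median of 0.70 beside -0.27, where 20.8% of all probes were called higher and 30.9% lower. Effectors made up much of this, with 10 of 15 higher and 1 lower (median 2.65). All 7 brown adipocyte markers counted above are in this effector list, so the counts are not separate. The higher effectors included the adrenergic receptor Adrb3 (3.25 ± 0.54), the potassium channel Kcnk3 (3.11 ± 0.52), the thioesterase Acot11 (2.99 ± 0.58) and the fatty acid importer Cpt1b of mitochondria (2.86 ± 0.61). Ucp1 itself was 0.67 ± 0.97, but its spot was saturated on 6 of the 7 late titled arrays. The nuclear receptors Esrra (2.35 ± 0.47) and Ppara (2.71 ± 0.61), partners of Ppargc1a, were called higher, and 11 of 19 transcription factors were in all, with 2 lower. Of 15 coregulators 4 were called higher, a share near that of all probes, and none lower. In the thyroid hormone list 5 of 8 were higher and 1 lower, the latter being the inactivating deiodinase Dio3 (-2.06 ± 0.76). Of 7 tested beige or white depot markers 5 were lower and 1 higher, among them Shox2 (-3.38 ± 0.81) and Hoxc9 (-2.39 ± 0.87). Among family members of the 9, 3 of 15 were higher and 6 lower, shares not far from those of all probes, with Ebf3 1.08 ± 0.27 and Ebf4 -2.54 ± 0.55. Dio1, Dio3, Pprc1 and Mecom are in this family list and in the lists above.

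Across all arrays the members fell into sets that varied together. Pearson correlations over the arrays shared by each pair (37 to 39) are a description, since the arrays share diet, time and scan. Ppargc1a, Ppargc1b, Dio2, Otop1 and Ebf2 had r of 0.68 to 0.88 with each other. No correlation of Cidea is read here, because its spot was saturated on the 8 arrays where Ppargc1b was highest. Prdm16 had r between -0.11 and 0.18 with every other member. Without the 9 titled arrays Ppargc1a and Dio2 still had r = 0.70, while Ppargc1b and Dio2 had r = 0.30. HFC Week 6 is still among these arrays, at 4.51 for Ppargc1b, where the other ordinary arrays reached 1.81, and at -0.21 for Dio2. That array can weigh heavily on the r of Ppargc1b, and no r was computed without it.

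**Figure D4:**
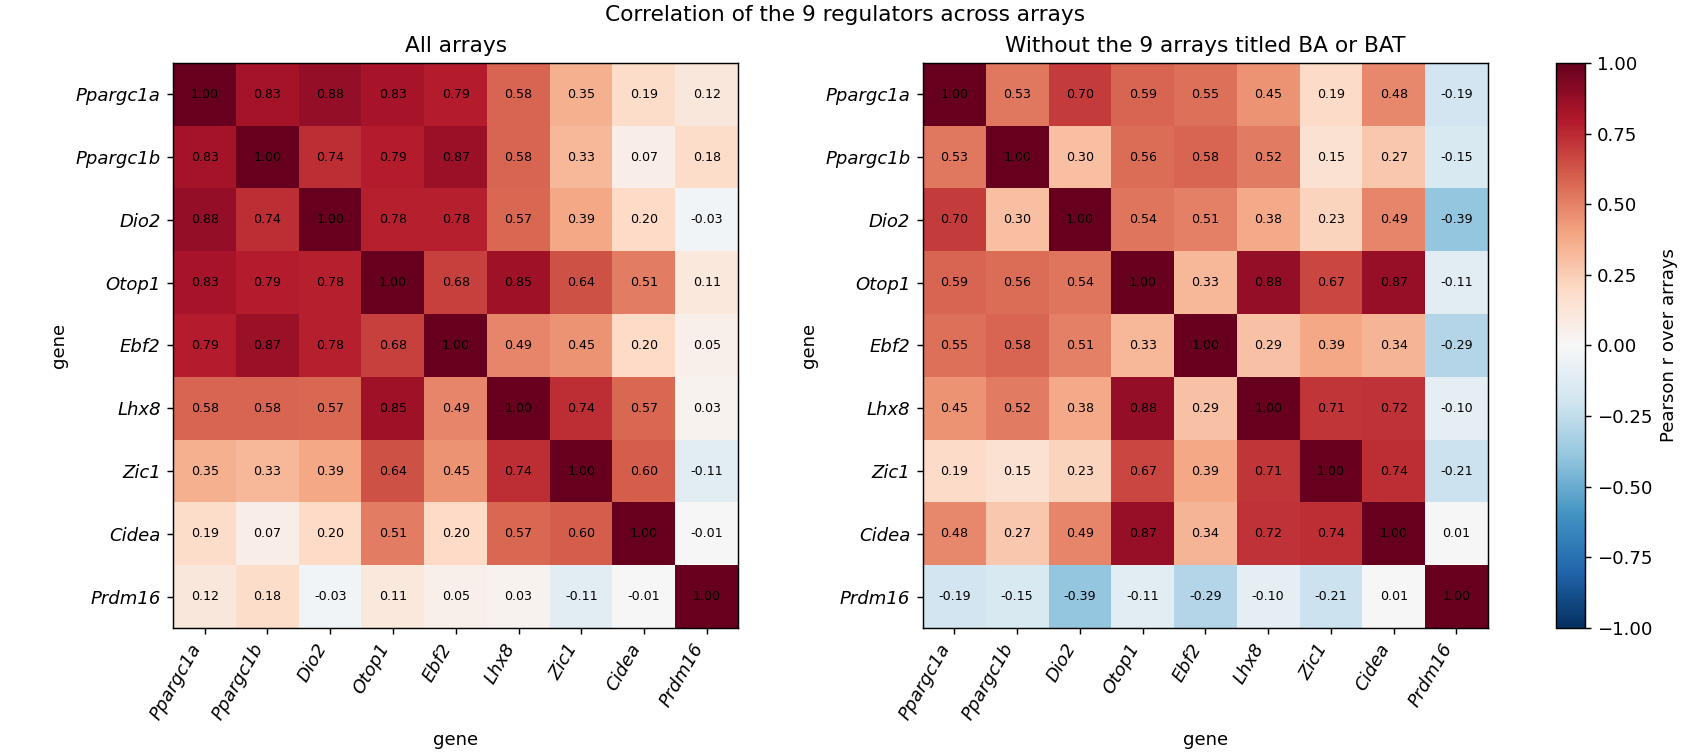
Pearson correlation of the levels of each pair of the 9 genes (both axes) over all arrays (left) and without the 9 titled arrays (right), from blue (-1) to red (1). Prdm16 has no r above 0.18 on the left, and the block of Ppargc1a, Ppargc1b, Dio2, Otop1 and Ebf2 pales on the right. The Cidea cells include saturated, and so capped, values.

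The genes most like each member over arrays were sought among 17052 genes (17053 for Lhx8). For Ppargc1b they were the mitochondrial genes Ppa2 (r = 0.96), Bcs1l (r = 0.96) and Afg3l2 (r = 0.96), and for Otop1 they were Dld (r = 0.95), Gpd2 (r = 0.95) and Apoo (r = 0.95). For Cidea they were Cox7a1 (r = 0.97), Cox8b (r = 0.92) and Ucp1 (r = 0.90), values listed but not read, since Cidea was saturated on 8 arrays. Ucp1 was saturated on 6 of the 7 late titled arrays and on HFC Week 6. LFC Day 10 and HFC Week 12, very low in both Cidea and Ucp1, are included too. For Ebf2 they were Coq2 (r = 0.93), Mrps9 (r = 0.93) and Blcap (r = 0.93). For Ppargc1a they were Btf3l4 (r = 0.92), Mrps31 (r = 0.91) and LOC100046413 (r = 0.91). Dio2 was most like 4931406C07Rik (r = 0.91), Kctd1 (r = 0.90) and Slc27a2 (r = 0.88), and Zic1 like Ucp1 (r = 0.75), Tbx15 (r = 0.75) and LOC100047867 (r = 0.72). The r of Zic1 with Ucp1 includes LFC Day 10, where both genes were far below the other arrays that measured Zic1. Lhx8 was most like Otop1 itself (r = 0.85), Gm5131 (r = 0.84) and Cat (r = 0.82). Without LFC Day 10 and HFC Week 12, where neither gene was well above background, Lhx8 and Otop1 had r = 0.75. Prdm16 was most like E130308A19Rik (r = 0.81), Pcnx (r = 0.80) and Ppp1r14c (r = 0.78).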

How the data were processed

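The deposited scanner files are the output of Agilent 1-colour arrays. Per the file headers they hold spot intensity after background subtraction by Feature Extraction. The submitters' notes give its version as 9.1, while the headers name another version. The deposited series table holds log2 values relative to a baseline array of each time label, set by the authors, and was used only as an alternative. Here log2 of the processed signal minus the array's 75th percentile was computed, spots marked as outliers were left out, and spots of 1 probe were averaged. Probes well above background on at least 6 arrays were kept (33573). Levels of a gene are from the probe with the highest mean. No column was unmatched (0).

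Fits were made in limma 3.58.1 (R 4.3.3) across all probes with Benjamini-Hochberg adjustment, for diet with time label as a term, for time as log2 of days with diet as a term, and for titles with both terms. The time labels pair the arrays by the labels' own statement of the day. As a check, deviations of HFC and LFC arrays of the same label correlated between -0.40 and 0.63, over 0.1 for 6 of 10 labels. The slope of Dio2 on KAL arrays was tested by exact permutation. The fits were tested on simulated data, with noise drawn independently for each probe and array. There HFC against LFC recovered 113 of 200 probes changed 4-fold, and the LFC and HFC trend 122 of 200 given a slope of 0.5. Effects shared by arrays of a scan date or title were not simulated, so these shares may not hold for the real arrays. Figures used Python 3.11.15 and matplotlib 3.10.9.

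The members and lists were chosen with earlier results of these data known. Named genes are the 9 members, genes of the lists, and the 3 genes of highest correlation with each member, among brightest probes well above background on at least 20 arrays and shared on at least 30. Alternatives covered normalization, background, spots, filter, probes, arrays left out, blocks, weights, the methods' t-test and the time scale. Settings on titles with HFC Week 6, the Day 14 labels and HF20 Week 15, and the comparison of titles, were added after seeing the data. The number of arrays limits the precision.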

Additional observations from a re-analysis of the deposited data

Results flagged for a closer look

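Of the 37 tests for 1 array far from the rest of its diet, made on groups of 5 to 10 arrays, 6 passed their 95% limit, where chance passes about 1 in 20. HFC, with 11 arrays, was tested for Zic1 alone. Its Week 12 array, at -0.29 for Cidea with the next at 4.93, was therefore outside these tests. In LFC the Day 10 array was far below the others for Cidea (1.13, next 5.54 on a saturated array), Zic1 (-7.69, next -3.00) and Lhx8 (-7.57, next -5.20). In HF20 the Week 15 array was far below for Cidea (2.05, next 6.24 on a saturated array). In HF75 the titled Week 15 array was far above for Otop1 (3.99, next -0.42) and Ppargc1b (4.13, next 0.76).

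For 4 genes the titled arrays lay below the ordinary arrays at both early labels and above them at all 4 late labels. The mean difference over Day 1 and Day 6 was -0.64 for Ppargc1a, -0.72 for Dio2, -0.89 for Lhx8 and -1.01 for Otop1, and at single labels from Week 9 to Week 18 it was between 1.83 and 4.56 for Dio2 and between 2.19 and 3.37 for Ppargc1a. For Lhx8 and Otop1 no late size is given and the turn is less sure, since several of the arrays compared, LFC Day 6 among them, were not well above background for these 2 genes. The LFC Day 6 value of Dio2 was not well above background either. Each early difference sets 1 array against 1 other that was scanned on another date, and the Week 9 arrays also differ in scan date by title. The turn was looked for among the members only, so the share of all probes that show it is not known. This turn of direction was not tested.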

How the results depend on the processing

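No member was called in any diet, dose or time comparison under any alternative run. Over all probes, HFC against LFC (0 calls) had 2 with quantile normalization, 2 without the titled arrays, 1 without HF20 Week 12, 1 without HF20 Week 15, 4 without the titled arrays and HFC Week 6, 4 with the title as a further term, and 32 with array weights. HF75 against HFC (0) had 3 without the titled arrays, 3 without these and HFC Week 6, and 1 with the title as a term. The LFC and HFC trend (0) had 4 with quantile normalization, 5 with the filter at 20 arrays, 163 with array weights, 3 over days, 2 over the order of labels, and 17 without the titled arrays and HFC Week 6. The KAL trend (0) had 1232 with array weights and 597 with the title as a term. The comparison of titles (17372 calls, 6983 of them higher) had 11125 with quantile normalization, 7642 of them higher, 27958 with another background correction (normexp), 7751 of them higher, and 11362 with the stricter filter, 6581 of them higher. Lhx8 there turned to -0.56 under normexp. The cause of these changes was not tested.

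Over all probes, leaving out 1 time label at a time gave 0 to 1 calls for HFC against LFC and for the LFC and HFC trend (1 without Day 1 and 1 without Week 15 in each), 0 in the dose comparisons, the KAL trend and the slope difference, and 9865 (Week 12) to 19868 (Day 1) for the titles, of which 5 to 7 were members. Without Week 9 the titles gave 10225. The slope of Dio2 was then 0.44 to 0.81 on LFC and HFC arrays and 0.24 to 1.54 on KAL arrays, on the same side of the threshold throughout. Without the replicate block, that is with the time label left out of the pairing of arrays, no probe was called for any diet or dose (0), the title comparison gave 15652 calls, and the HF5 estimate of Dio2 was 3.15. By the methods' t-test over all probes, 1284 (HFC against LFC), 1539 (HF5), 1753 (HF20) and 2130 (HF75) probes had an unadjusted p under 0.05, and 0 remained after Benjamini-Hochberg adjustment. Of 1986 member values under alternatives, 1832 kept their direction and 154 did not. Lhx8 was well above background on 19 arrays and Cidea saturated on 8, which limits both.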
